A study of Mus musculus with 8 samples.

Results

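The S100 proteins of gut epithelium were followed through 2 RNA-seq experiments, one on mouse intestinal organoids and one on hairpin knockdown libraries whose files hold human genes. The set was defined by gene symbol, with earlier results of these data known. It held S100a1, S100a4, S100a6, S100a10, S100a11, S100a13, S100a14, S100a16 and S100g in mouse. In the human annotation it held the same 9 symbols in upper case plus S100P. All 9 mouse members were among the 21757 symbols of the count table of the first experiment, and all 10 human members were among the 60037 human gene identifiers used from the second. S100P was looked for in the human files alone.

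Polyadenylated RNA was sequenced from 8 libraries, 2 in each of 4 groups, after a modified Smart-seq2 protocol, which makes full-length cDNA. In the first experiment, Ctnnb1-ex3 organoids, named after exon 3 of the beta-catenin gene, were set against wild-type (WT) organoids. Both were labelled as mouse small-intestinal organoids. Ctnnb1-ex3 organoids grew with Noggin at 0.1 µg/ml and EGF at 0.05 µg/ml, and WT organoids with the same concentrations of both plus recombinant Wnt3a and R-spondin1, so genotype and medium differed together and cannot be told apart. In the second experiment, libraries with a hairpin RNA that targets Prmt1 (sh-Prmt1) were set against libraries with a scrambled hairpin (sh-scramble). Their labels gave mouse as the organism, but every gene identifier in their files was human, so the culture behind them was not established, and neither were its medium and genotype. Nothing in the labels said that replicates came from separate cultures or animals, so p-values reflect library-to-library spread, which may be technical alone.

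S100 proteins are small calcium-binding proteins built on paired EF-hand motifs. Most work as dimers: calcium binding opens a surface that grips a target protein, and S100a10 is the member that has lost calcium binding and stays in the open form. In the intestine, S100g, also called calbindin-D9k, carries calcium through absorptive enterocytes and is a classic vitamin D target, while S100a6, S100a10, S100a11 and S100a14 are widespread in epithelia. Most S100 genes lie in 1 cluster, and S100g lies apart on the X chromosome.

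In the mouse genome (GRCm38, GENCODE M21), 6 of the 9 members, S100a1, S100a13, S100a14, S100a16, S100a4 and S100a6, lay within 113.1 kb of chromosome 3. S100a11 and S100a10 lay together within 44.2 kb, separated from that group by 2.9 Mb, and S100g lay on the X chromosome. The neighbours S100a1 and S100a13 are transcribed away from each other, with annotated starts 105 bases apart in RefSeq. RefSeq promoter windows, 250 bases before to 50 bases after a start on GRCm38.p6, were found for 7 of the 9 mouse members. The window of S100a13 is shown because it holds both starts of this divergent pair: it covers chr3:90514185-90514484 on the plus strand, and its capitals run from the first base of S100a1 to the first base of S100a13. The window of S100g is shown because that gene had the largest genotype difference of the set: it covers chrX:162964550-162964849 on the minus strand. Its capitals mark a TCF/LEF core, AACAAAG, starting 44 bases before the annotated start, and a TATA box, TATAAA, at the start.
S100a13: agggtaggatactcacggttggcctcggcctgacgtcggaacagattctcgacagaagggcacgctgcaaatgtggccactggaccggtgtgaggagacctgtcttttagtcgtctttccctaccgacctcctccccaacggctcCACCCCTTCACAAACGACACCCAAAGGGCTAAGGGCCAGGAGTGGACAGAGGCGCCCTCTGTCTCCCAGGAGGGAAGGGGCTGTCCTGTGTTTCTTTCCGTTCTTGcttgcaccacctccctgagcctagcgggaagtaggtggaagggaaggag
S100g: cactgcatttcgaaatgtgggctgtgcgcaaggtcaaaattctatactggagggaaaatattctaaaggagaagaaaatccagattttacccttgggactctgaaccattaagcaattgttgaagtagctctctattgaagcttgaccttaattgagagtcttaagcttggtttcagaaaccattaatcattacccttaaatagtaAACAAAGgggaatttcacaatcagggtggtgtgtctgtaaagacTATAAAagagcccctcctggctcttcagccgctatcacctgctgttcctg
The TCF/LEF core was searched on both strands as AACAAAG, or as ATCAAAG, or as TACAAAG, or as TTCAAAG, and was held by 1 of 8 member windows (12.5%), against 5544 of 32851 windows of the same length (16.9%). The TATA box was held by 2 of 8 member windows (25.0%), those of S100g and S100a4, against 4473 of all windows (13.6%). A match is a run of letters in the window and not a binding site.

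Total counts were 6015933 and 3683169 in the Ctnnb1-ex3 libraries and 4631527 and 2951887 in the WT libraries, and estimated counts summed to 39603757 and 53188197 in sh-Prmt1 and 39732129 and 45882856 in sh-scramble. The targeted gene PRMT1 stood at 3.39 and 3.71 TPM (an abundance scaled by transcript length) with sh-Prmt1 and at 32.1 and 32.2 TPM with sh-scramble, a log2 fold change of -3.48 ± 0.12 (SE) with an edgeR adjusted p of 1.0e-06. Axin2, a direct target of Wnt signalling, was 3.40 ± 0.17 higher on the log2 scale in Ctnnb1-ex3 than in WT organoids (SE, edgeR adjusted p = 3.8e-05), and the Wnt targets Lgr5 and Nkd1 were 4.07 and 4.41 higher (2.4e-05 and 0.00052). Prmt1 was 1.97 higher (0.0029), and Ctnnb1 had a log2 fold change of -0.59 (0.0504). Nkd1 had 143 and 111 counts in Ctnnb1-ex3 and 5 and 3 in WT. It passed the filter on low counts through the Ctnnb1-ex3 libraries only, so its call adds no independent evidence of a rise. With sh-Prmt1, CTNNB1 (-0.72, 0.0054, but 0.11 with limma on TPM) and LGR5 (-0.68, 0.00070) fell, while AXIN2 (-0.10, 0.36) and NKD1 (0.01, 0.98) were not called. The 7 epithelial markers summed to 1726 and 2426 library-scaled counts (CPM) in Ctnnb1-ex3 and 2421 and 3115 CPM in WT, while the 15 stromal and endothelial markers summed to 49.0 and 38.5 CPM in Ctnnb1-ex3 and 32.2 and 17.5 CPM in WT. In the knockdown, epithelial markers summed to 3374 and 3291 CPM with sh-Prmt1 and 2711 and 2663 CPM with sh-scramble, and stromal markers to 3.60 and 2.47 CPM with sh-Prmt1 and 1.70 and 2.33 CPM with sh-scramble.

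The comparison of Ctnnb1-ex3 with WT organoids asked how the S100 genes differ when beta-catenin carries the ex3 allele. A gene was called at a Benjamini-Hochberg adjusted p under 0.05 in edgeR's quasi-likelihood test over 12976 genes. S100g, S100a16, S100a1 and S100a13 fell, and no member rose. That is 4 of 9 members lower and 0 higher, where 20.5% of all genes tested were called lower and 20.3% higher, or 40.8% either way. The median log2 fold change of the members was -0.53, and that of all genes tested was 0.02. With TMM factors 2637 genes were called higher and 2654 lower, and with upper-quartile factors, which put the median of all genes at 0.26, 3725 higher and 1752 lower. Summed over the members, the level was 615 and 831 CPM in Ctnnb1-ex3 and 1005 and 1344 CPM in WT. The CPM of 5 members were lower in both Ctnnb1-ex3 libraries than in either WT library, that of S100a4 was higher in both, and 3 members overlapped. Among all genes tested, 35.6% were lower and 38.1% higher without overlap.

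S100g, the calcium carrier of absorptive cells, fell most among the members. Its counts were 262 and 175 in the Ctnnb1-ex3 libraries and 611 and 515 in the WT libraries, which gave 42.2 ± 3.94 CPM in Ctnnb1-ex3 and 168 ± 39.1 CPM in WT (SD, n = 2 each). Both Ctnnb1-ex3 libraries stood below both WT libraries. The log2 fold change was -1.996 ± 0.19 (SE, edgeR adjusted p = 0.00029), a 3.99-fold lower level. In bulk RNA, fewer cells that make a transcript and less of it per cell cannot be told apart. Markers of absorptive enterocytes moved with it: 14 of 15 fell, among them Alpi (-3.78), a brush-border phosphatase, Mttp (-2.88), which loads lipid onto lipoproteins, and Sis (-2.77), the sucrase-isomaltase. Their summed level was 2065 and 1690 CPM in Ctnnb1-ex3 and 6735 and 7945 CPM in WT. The part of these cells in the fall of S100g was not tested.

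S100a16, a member of broad expression, and S100a1, best known from heart muscle, fell by similar amounts. S100a16 had 507 and 358 counts in Ctnnb1-ex3 and 625 and 417 counts in WT, or 84.1 ± 11.1 CPM and 151 ± 10.4 CPM (SD, n = 2 each). Its log2 fold change was -0.85 ± 0.15 (SE, edgeR adjusted p = 0.0035). S100a1 had 517 and 355 counts in Ctnnb1-ex3 and 577 and 429 counts in WT, or 84.4 ± 9.54 CPM and 148 ± 21.5 CPM (SD, n = 2 each). Its log2 fold change was -0.81 ± 0.16 (SE, edgeR adjusted p = 0.0056). In both genes the CPM of the groups did not overlap. The call of S100a1 was lost without the second WT library, with an edgeR adjusted p of 0.058.

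The annotated starts of S100a13 and S100a1 lay 105 bases apart in RefSeq and 43 bases apart in GENCODE M21. S100a13 takes part in the release of growth factors that lack a signal peptide. It had 361 and 188 counts in Ctnnb1-ex3 and 314 and 202 counts in WT, or 51.3 ± 4.21 CPM and 74.6 ± 3.22 CPM (SD, n = 2 each), and the groups did not overlap. The log2 fold change was -0.53 ± 0.15 (SE, edgeR adjusted p = 0.026). The call of S100a13 was lost with upper-quartile factors (edgeR adjusted p = 0.18), with DESeq2 (adjusted p = 0.11), when low-count genes were kept (edgeR adjusted p = 0.15) and without either WT library (edgeR adjusted p = 0.11 and 0.23). Of the cargo proteins known to leave cells with S100A13, Fgf1 had 71 and 25 counts in Ctnnb1-ex3 and 64 and 29 in WT, giving -0.58 on the log2 scale (edgeR adjusted p = 0.32), and Il1a had 1 and 4 counts in Ctnnb1-ex3 and 2 and 1 in WT.

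The 5 other members were not called. S100a10, the annexin A2 partner, had 166 ± 44.6 CPM in Ctnnb1-ex3 and 253 ± 64.0 CPM in WT (SD, n = 2 each), without overlap, and a log2 fold change of -0.61 ± 0.24 (SE, edgeR adjusted p = 0.077). S100a10 was called lower with DESeq2 (adjusted p = 0.013) and when low-count genes were kept (edgeR adjusted p = 0.011). S100a11, an annexin A1 partner, had 142 ± 46.9 CPM in Ctnnb1-ex3 and 190 ± 53.9 CPM in WT (SD, n = 2 each), with overlapping libraries and a log2 fold change of -0.43 ± 0.27 (SE, edgeR adjusted p = 0.23). S100a14, an epithelial member, had 189 and 159 counts in Ctnnb1-ex3 and 164 and 157 in WT, and its log2 fold change was -0.49 ± 0.29 (SE, edgeR adjusted p = 0.21). S100a6, the partner of the ubiquitin-pathway adaptor Cacybp, had 612 and 531 counts in Ctnnb1-ex3 and 492 and 422 in WT, and its log2 fold change was -0.26 ± 0.23 (SE, edgeR adjusted p = 0.39). Both Ctnnb1-ex3 libraries thus held more S100a6 counts than either WT library, while its CPM overlapped between the groups, at 92.0 and 136 in Ctnnb1-ex3 and 113 and 161 in WT.

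S100a4, known from motile and mesenchymal cells, was the scarcest member and, with TMM scaling, the only one with a positive fold. It had 30 and 20 counts in Ctnnb1-ex3 and 17 and 7 counts in WT, and a log2 fold change of 0.52 ± 0.52 (SE, edgeR adjusted p = 0.45). Of its 584 exon bases, 302 are shared with Gm42674, a gene on the same strand that the count table does not list. Reads of the 2 genes cannot be told apart within the shared bases. Of 2 tested stromal markers, 0 were called in edgeR.

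**Figure D1:**
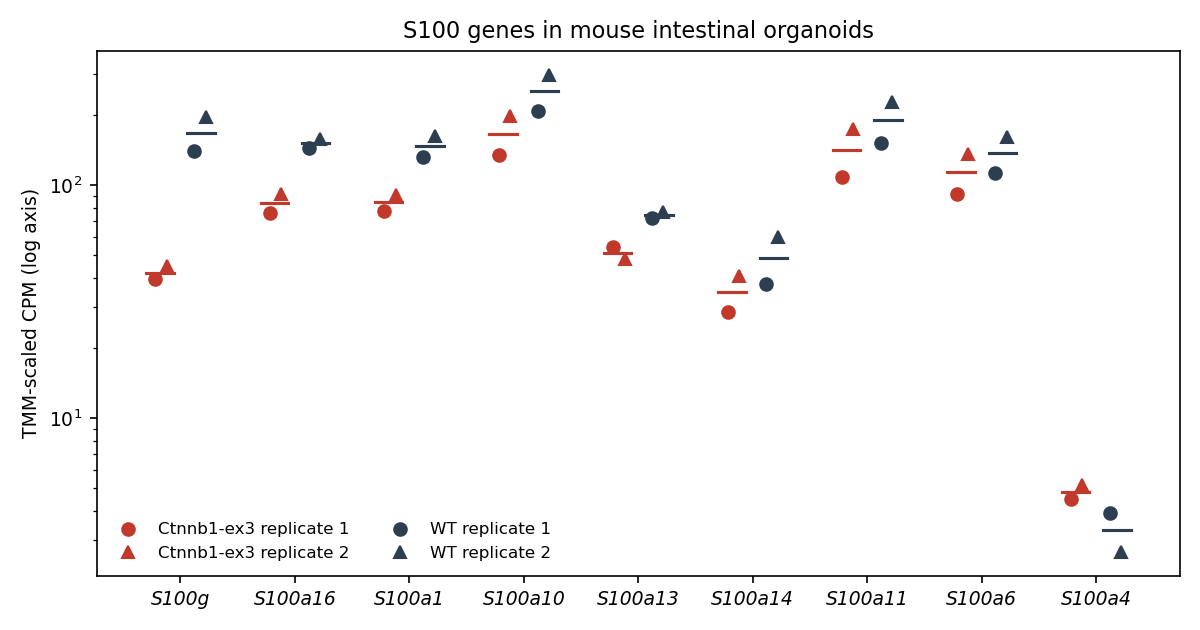
TMM-scaled CPM (log axis) of the 9 mouse S100 members, with 1 point per library and a line at the group mean. Both Ctnnb1-ex3 libraries lie below both WT libraries for S100g, S100a16, S100a1, S100a10 and S100a13, and above them for S100a4.

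Leaving out 1 library moved the number of members called lower: it was 8 without the second Ctnnb1-ex3 library and 2 without the second WT library. Without the second Ctnnb1-ex3 library, S100a6 fell by 0.56 on the log2 scale at an edgeR adjusted p of 0.0063, and S100a14 fell by 0.76 at 0.012. S100a10 then had an edgeR adjusted p of 0.0016 (0.045 without the first WT library) and S100a11 one of 0.0017. Over all genes tested, 27.1% were called lower without the second Ctnnb1-ex3 library and 10.7% without the second WT library. Those 2 libraries were the shallower ones of their groups. The second Ctnnb1-ex3 library also stood apart in immune and blood markers. The 12 listed in the table summed to 15.6 and 64.2 CPM in Ctnnb1-ex3 and 31.1 and 17.5 CPM in WT. Gzma, a protease of cytotoxic lymphocytes, had 1 and 110 counts in Ctnnb1-ex3 and 1 in both WT libraries, and Coro1a, a leukocyte actin-binding protein, had 2 and 51 counts in Ctnnb1-ex3 and 3 and 1 in WT. These 2 genes were chosen after their values were seen. With all libraries in the fit, 2 of the 12 immune and blood markers passed the filter on low counts, and 0 were called. The part of these transcripts in the S100 results was not tested.

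The ratio between replicate libraries depended on how densely reads covered a gene, and most S100 genes are short and densely covered. In raw counts of like libraries this ratio should stay near the ratio of the totals, which was 0.612 in Ctnnb1-ex3 and 0.637 in WT (replicate 2 over replicate 1). Among the 3506 genes with up to 30 counts per kb of exon, averaged over the 4 libraries, the median ratio was 0.517 in Ctnnb1-ex3 and 0.550 in WT. Among the 890 genes between 300 and 1000 counts per kb it was 0.748 and 0.723, and among the 35 genes above 1000 it was 0.886 and 0.858. The median log2 fold change of Ctnnb1-ex3 over WT moved along the same bins, at 0.46 in the sparsest, -0.47 between 300 and 1000, and -0.56 in the densest. What made the ratio follow density was not tested.

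S100a11 had 1302 counts per kb, and 99.9% of the 12318 tested genes with a known exon length had fewer. Its replicate ratio was 0.943 in Ctnnb1-ex3 and 0.909 in WT, far above the ratio of the totals. S100g (814 counts per kb), S100a10 (692) and S100a1 (677) followed in density. S100a6 (376), S100a13 (372) and S100a16 (295) came next, and 92.3% or more of genes had fewer counts per kb than each of these 7. S100a14 (96.8) and S100a4 (31.7) were sparser. The members did not all follow the trend. S100a14, of moderate density, had replicate ratios of 0.841 in Ctnnb1-ex3 and 0.957 in WT, and the denser S100a13 had 0.521 in Ctnnb1-ex3 and 0.643 in WT, below or near the ratio of the totals.

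**Figure D2:**
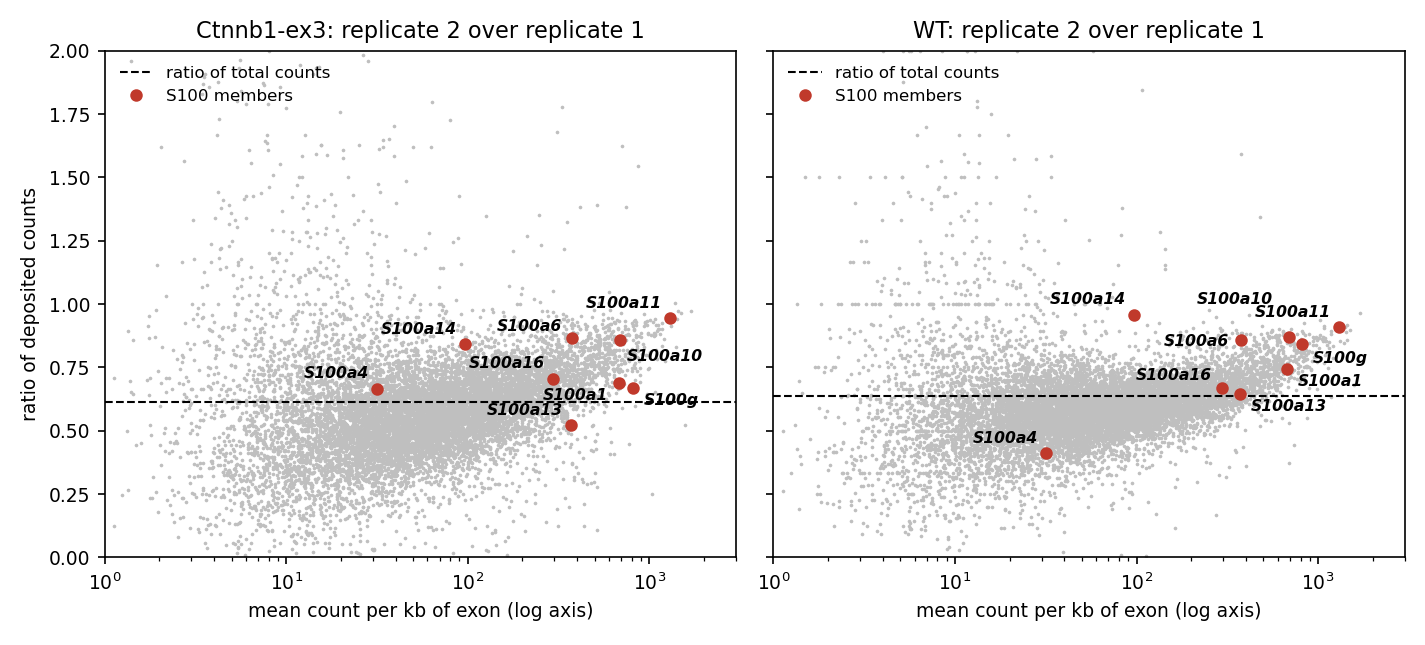
Ratio of deposited counts, replicate 2 over replicate 1, against the mean count per kb of exon (log axis), in Ctnnb1-ex3 (left) and WT (right). Grey points are 11307 genes with a mean of at least 20 counts, red points the S100 members and the dashed line the ratio of the total counts; 58 genes in Ctnnb1-ex3 and 22 in WT lie above the axis limit. All members except S100a4 and S100a13 lie above the dashed line in both groups.

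A second normalization, chosen after this trend was seen, let the scaling of each library follow read density. It was fitted to each library's deviation from the mean over the libraries of both groups. Differences between Ctnnb1-ex3 and WT that follow density were therefore removed by it too, along with those between replicates. S100g (log2 fold change -1.37, edgeR adjusted p = 0.00032) and S100a16 (-0.45, 0.015) fell under it as well, and 0 members rose. That is 2 of 9 members lower, where 20.6% of all genes were called lower and 19.8% higher. S100a1 gave a value of -0.24 on the log2 scale (edgeR adjusted p = 0.18), S100a13 one of -0.07 (0.81) and S100a10 one of -0.04 (0.76). S100a11 had a log2 fold change of 0.24 (0.097) and S100a6 one of 0.18 (0.34), both of opposite sign to those above. S100a14 (-0.37, 0.33) and S100a4 (0.29, 0.69) were not called. The median of the members was -0.07 and that of all genes 0.01. The calls of S100a1 and S100a13, and the signs of S100a11 and S100a6, therefore hold for 1 of the 2 normalizations only.

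**Figure D3:**
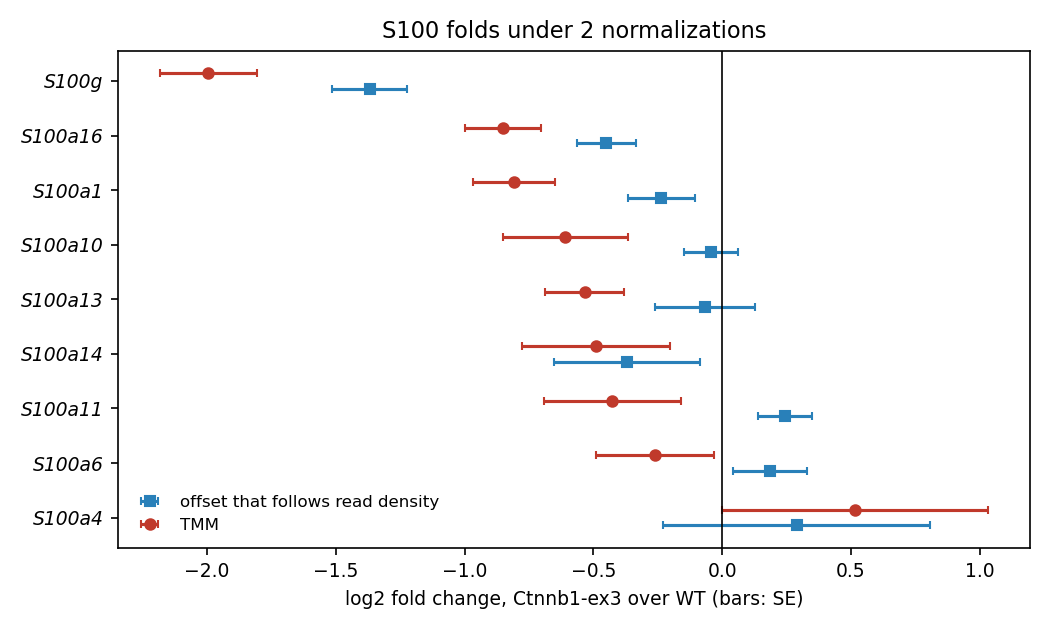
Log2 fold changes of the 9 mouse members, Ctnnb1-ex3 over WT, with bars of 1 SE, under TMM scaling and under an offset that follows read density. S100g and S100a16 lie left of 0 and were called under both.

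Of the listed binding partners of S100 proteins, 6 of 19 tested rose in Ctnnb1-ex3, 4 fell and 9 were not called, with a median log2 fold change of -0.17. Anxa6, a membrane-binding annexin, rose by 2.02 ± 0.56 on the log2 scale (SE, edgeR adjusted p = 0.023), Cd44, a surface receptor and Wnt target, rose by 1.84 ± 0.16 (0.00024), and S100pbp, named for binding S100P, rose by 1.82 ± 0.55 (0.030). The call of S100pbp was lost with the density offset (edgeR adjusted p = 0.15), with DESeq2 (adjusted p = 0.064), with no filter (edgeR adjusted p = 0.068) and without either WT library (edgeR adjusted p = 0.34 and 0.11), and that of Anxa6 without the second WT library (0.058). S100pbp had 70 and 34 counts in Ctnnb1-ex3 and 8 and 10 in WT, and Anxa6 had 249 and 87 in Ctnnb1-ex3 and 49 and 7 in WT. Both genes needed a Ctnnb1-ex3 library to pass the filter on low counts. Fewer partners were called without either WT library, and the same held for all genes tested. The partners of S100a10 and S100a11 are added here although those members were not called, and were chosen after their values were seen. Anxa2, which forms a tetramer with S100a10, had 161 and 201 CPM in Ctnnb1-ex3 and 303 and 397 CPM in WT, and fell by 0.95 on the log2 scale (edgeR adjusted p = 0.0076). Ahnak, a scaffold that binds the same complex, fell by 0.82 (edgeR adjusted p = 0.026), a call lost with upper-quartile factors and without the second WT library (0.092 in both). Anxa1, the partner of S100a11, had 113 and 127 CPM in Ctnnb1-ex3 and 36.4 and 55.5 CPM in WT, and rose by 1.41 (edgeR adjusted p = 0.0015). Anxa2 (-0.56), Ahnak (-1.12) and Anxa1 (1.61) kept these signs with the offset that follows density.

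Around S100g, the list of vitamin D and calcium transport genes had 4 of 7 tested members lower and 1 higher, with a median log2 fold change of -0.67. Cldn15, which forms cation pores between enterocytes, fell by 1.20 ± 0.18 on the log2 scale (SE, edgeR adjusted p = 0.0017). Rxra, the partner receptor of the vitamin D receptor, fell by 0.90 ± 0.20 (0.0085), and Vdr, the vitamin D receptor, had 194 and 234 CPM in Ctnnb1-ex3 and 346 and 375 CPM in WT and fell by 0.76 ± 0.17 (0.011). Atp2b1, a calcium pump of the basolateral membrane, fell by 0.67 ± 0.17 (0.016). Slc8a1, a sodium-calcium exchanger, rose by 1.98 ± 0.46 (0.011). Without either WT library the calls of Vdr (edgeR adjusted p = 0.052 and 0.060), Atp2b1 (0.10 and 0.11) and Slc8a1 (0.071 and 0.092) were lost, which left 2 genes lower and 0 higher. The call of Atp2b1 was also lost with upper-quartile factors (0.056) and without the second Ctnnb1-ex3 library (0.080), and that of Slc8a1 with the density offset (0.063). Trpv6, the calcium channel of the apical membrane, had 15 and 2 counts in Ctnnb1-ex3 and 2 and 1 in WT, too few to test.

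Among 8 other S100 genes in the mouse table, 2 passed the filter on low counts. S100a3, known from hair follicles, had 17 and 23 counts in Ctnnb1-ex3, while both WT libraries stood at 1, the lowest value in the table. Its exons share 144 bases with the same unlisted gene Gm42674 and 117 with Gm23464, a small RNA gene on the other strand. S100a3 was called higher with an edgeR adjusted p of 0.011, a call that did not hold without either WT library. It passed the filter through the Ctnnb1-ex3 libraries only, so the call adds no independent evidence of a rise. Beside the enterocyte list, 14 of 15 crypt base stem cell markers rose, and of 15 secretory lineage markers 8 rose and 3 fell. Of the stem cell markers, Msi1 had 22 and 11 counts in Ctnnb1-ex3 and 1 in both WT libraries. Tnfrsf19 had 519 and 303 counts in Ctnnb1-ex3 and 8 and 3 in WT. Both passed the filter through the Ctnnb1-ex3 libraries only, so their calls add no independent evidence of a rise. Of 7 epithelial markers 0 rose and 1 fell, and of 2 tested immune and blood markers 0 were called in edgeR.

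The knockdown comparison asked how the human S100 genes differ when PRMT1, an arginine methyltransferase, is depleted. Over 18444 genes tested, S100A14, S100P and S100A16 rose, S100A6 fell, and 4 members were not called. That is 3 of 8 tested members higher and 1 lower, where 20.6% of all genes were called higher and 20.4% lower, or 41.0% either way. The median log2 fold change was 0.09 for the members and 0.03 for all genes. Read-density bins gave median replicate ratios between 1.27 and 1.36 in sh-Prmt1 and between 1.11 and 1.19 in sh-scramble, a narrower spread than in the mouse table. Without overlap between the groups in CPM, 3 members were higher and 2 lower, where 36.8% of genes were higher and 34.4% lower.

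S100A14 (ENSG00000189334.9), the epithelial member, rose most. It stood at 84.1 and 68.5 TPM with sh-Prmt1 and at 26.9 and 30.7 TPM with sh-scramble. The lowest sh-Prmt1 library was above the highest sh-scramble library. The log2 fold change, fitted on estimated counts, was 1.20 ± 0.10 (SE, edgeR adjusted p = 2.1e-05), a 2.30-fold higher level.

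S100P (ENSG00000163993.7), a secreted and cytoplasmic member often raised in carcinomas, stood at 831 and 780 TPM with sh-Prmt1 and at 448 and 464 TPM with sh-scramble. Its log2 fold change, again fitted on estimated counts, was 0.59 ± 0.09 (SE, edgeR adjusted p = 0.00051), 1.502-fold. In TPM the means lay further apart, at 806 with sh-Prmt1 and 456 with sh-scramble. S100A16 (ENSG00000188643.11) stood at 270 and 237 TPM with sh-Prmt1 and at 145 and 150 TPM with sh-scramble. On estimated counts its log2 fold change was 0.56 ± 0.09 (SE, edgeR adjusted p = 0.00083), 1.47-fold, also less than in TPM. Both genes were separated between the groups.

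S100A6 (ENSG00000197956.10) was the most abundant member per length in all 4 libraries. It stood at 5540 and 5342 TPM with sh-Prmt1 and at 5755 and 6203 TPM with sh-scramble. On estimated counts it fell by 0.37 ± 0.09 on the log2 scale (SE, edgeR adjusted p = 0.011). The call of S100A6 was lost in TPM, where limma on log2(TPM + 1) gave -0.14 (adjusted p = 0.44), and without the first sh-Prmt1 library (edgeR adjusted p = 0.066). That test called 3 members higher and 0 lower, where 28.0% of all genes were called higher and 15.5% lower. The summed level of the members was 10636 ± 415 TPM with sh-Prmt1 and 9977 ± 583 TPM with sh-scramble (SD, n = 2 each). S100A6 made up 50.7% and 51.7% of it with sh-Prmt1 and 60.2% and 59.7% with sh-scramble.

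S100A10 and S100A11, the annexin partners, came next in level. S100A10 stood at 2001 and 1805 TPM with sh-Prmt1 and at 1478 and 1724 TPM with sh-scramble, with a log2 fold change of 0.07 ± 0.10 (SE, edgeR adjusted p = 0.63). S100A11 stood at 1616 and 1420 TPM with sh-Prmt1 and at 1112 and 1291 TPM with sh-scramble, with a log2 fold change of 0.11 ± 0.10 (SE, edgeR adjusted p = 0.41). The TPM of S100A10 and S100A11 were higher in both sh-Prmt1 libraries than in either sh-scramble library, while their CPM overlapped between the groups. S100A4 stood at 544 and 649 TPM with sh-Prmt1 and at 563 and 487 TPM with sh-scramble, with overlapping libraries and a log2 fold change of -0.05 ± 0.13 (SE, edgeR adjusted p = 0.80). S100A13 stood at 41.9 and 40.7 TPM with sh-Prmt1 and at 38.6 and 39.9 TPM with sh-scramble, with a log2 fold change of -0.19 ± 0.09 (SE, edgeR adjusted p = 0.12). For S100A13 and S100A4 the mean TPM was higher with sh-Prmt1 while the fold on estimated counts was negative: limma on log2(TPM + 1) gave 0.072 for S100A13 (adjusted p = 0.59) and 0.18 for S100A4 (adjusted p = 0.35).

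S100A1 and S100G were at or near 0 and did not pass the filter. S100A1 had 4.45 and 2 estimated counts with sh-Prmt1 and 0 in both sh-scramble libraries. S100G had 1 and 0 estimated counts with sh-Prmt1 and 0 in both sh-scramble libraries, where 3 counts correspond to 0.0809 and 0.0708 CPM. At this depth S100G could not be compared between the groups.

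The order of levels was S100A6, S100A10, S100A11, S100A4, S100P, S100A16, S100A13 and S100A14 with sh-scramble. With sh-Prmt1, S100P stood above S100A4, and S100A14 above S100A13. No 2 neighbours in either order had overlapping TPM ranges, with 2 libraries per group.

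**Figure D4:**
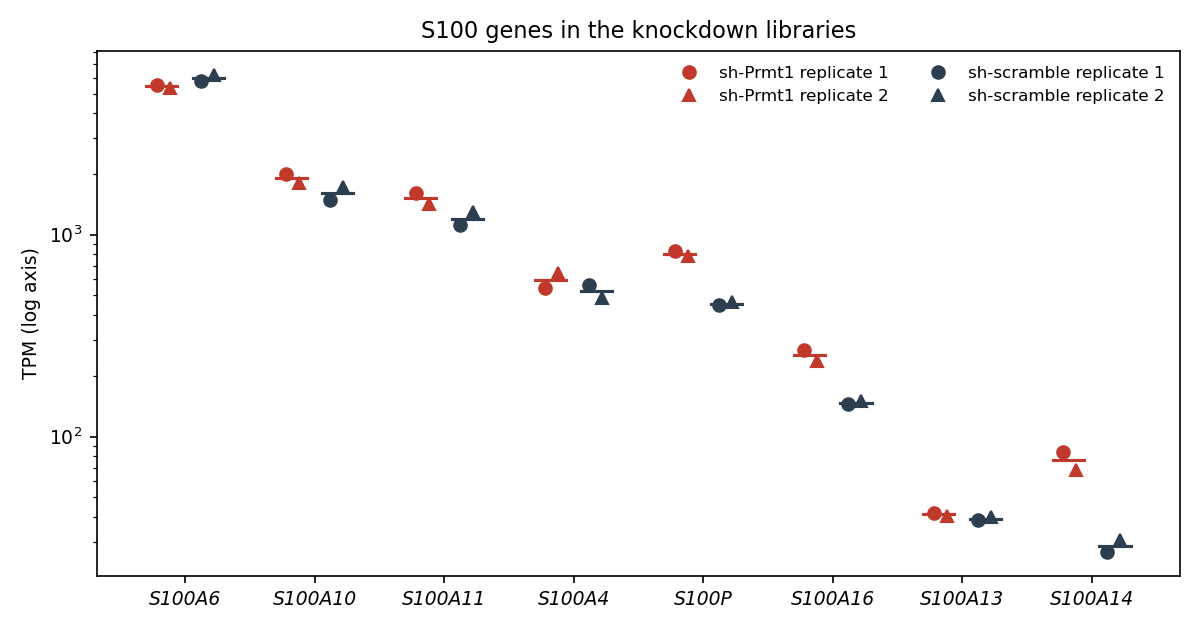
TPM (log axis) of the 8 human S100 members that passed the filter, with 1 point per library and a line at the group mean. S100A14, S100P and S100A16 are higher in both sh-Prmt1 libraries than in either sh-scramble library, and S100A6 lies above all other members in both groups.

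Of 16 tested binding partners, 4 rose with sh-Prmt1, 3 fell and 9 were not called, with a median log2 fold change of 0.03. TAGLN2, an actin-binding transgelin, rose by 0.68 ± 0.10 on the log2 scale (SE, edgeR adjusted p = 0.00048). ANXA1, the partner of S100A11, stood at 16.1 and 15.8 TPM with sh-Prmt1 and at 26.7 and 29.4 TPM with sh-scramble, and fell by 0.98 (edgeR adjusted p = 2.9e-05). ANXA5, which binds phosphatidylserine, fell by 0.999 ± 0.12 (edgeR adjusted p = 0.00018). EZR, the membrane linker ezrin that S100P binds, stood at 66.3 and 58.3 TPM with sh-Prmt1 and at 34.9 and 38.0 TPM with sh-scramble, and rose by 0.58 ± 0.09 (edgeR adjusted p = 0.00053). S100PBP, also named for binding S100P, fell by 0.46 ± 0.13 (edgeR adjusted p = 0.016), a call lost with limma on TPM (adjusted p = 0.11) and without the second library of either group (edgeR adjusted p = 0.074 and 0.087). For S100A6, the partner ANXA11 rose by 0.54 ± 0.08 (edgeR adjusted p = 0.00061), while CACYBP had a log2 fold change of 0.19 ± 0.09 (0.13).

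Among 10 tested vitamin D and calcium transport genes, 3 rose and 2 fell. CALB1, the larger calbindin, rose by 1.64 ± 0.19 on the log2 scale (SE, edgeR adjusted p = 0.00013) at a level of 1.95 and 2.00 TPM with sh-Prmt1 and 0.709 and 0.452 TPM with sh-scramble. ATP2B4, a calcium pump, rose by 0.82 ± 0.14 (0.0011, but 0.051 with limma on TPM), and CLDN2, a cation-pore claudin, fell by 1.74 ± 0.15 (2.5e-05). VDR had a log2 fold change of 0.07 ± 0.08 (0.51). Among 10 other human S100 genes, S100A2 alone passed the filter: it stood at 60.4 and 53.6 TPM with sh-Prmt1 and at 31.9 and 36.3 TPM with sh-scramble, and rose by 0.56 ± 0.10 (SE, edgeR adjusted p = 0.0014). Beside these, 4 of 9 tested enterocyte markers rose and 1 fell. Of 11 stem cell markers 1 rose and 4 fell, and of 9 secretory markers 2 rose and 2 fell. The enterocyte marker RBP2 had 61 and 31 estimated counts with sh-Prmt1 and 0 in both sh-scramble libraries, so it passed the filter through sh-Prmt1 only. The stem cell marker SMOC2 had 4 and 19 with sh-Prmt1 and 29 and 37 with sh-scramble, and needed sh-scramble to pass. Neither call adds independent evidence of a change. The 14 enterocyte markers present summed to 6111 and 6221 CPM with sh-Prmt1 and 7885 and 8536 CPM with sh-scramble. FABP1, chosen after its values were seen, held 5387 and 5480 CPM of this with sh-Prmt1 and 7175 and 7806 CPM with sh-scramble. The 15 secretory markers summed to 537 and 637 CPM with sh-Prmt1 and 1326 and 1166 CPM with sh-scramble. AGR2 held 444 and 533 CPM of this with sh-Prmt1 and 1231 and 1096 CPM with sh-scramble. Of 7 epithelial markers 2 rose and 1 fell, and of 5 stromal markers 0 were called in edgeR. Of 4 tested immune and blood markers 2 rose, HBB and CD68, and 1 fell, CORO1A. HBB, a haemoglobin gene, had 116 and 222 estimated counts with sh-Prmt1 and 2 and 1 with sh-scramble. It passed the filter through sh-Prmt1 only, so its call adds no independent evidence of a rise. Summed immune and blood markers were 9.69 and 9.93 CPM with sh-Prmt1 and 4.72 and 5.33 CPM with sh-scramble. HBB held 2.71 and 3.91 CPM of this with sh-Prmt1 and 0.0539 and 0.0236 CPM with sh-scramble. CD68 held 3.76 and 3.21 CPM with sh-Prmt1 and 1.16 and 0.849 CPM with sh-scramble, and CORO1A went the other way. The part of these markers in the results was not tested.

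**Figure D5:**
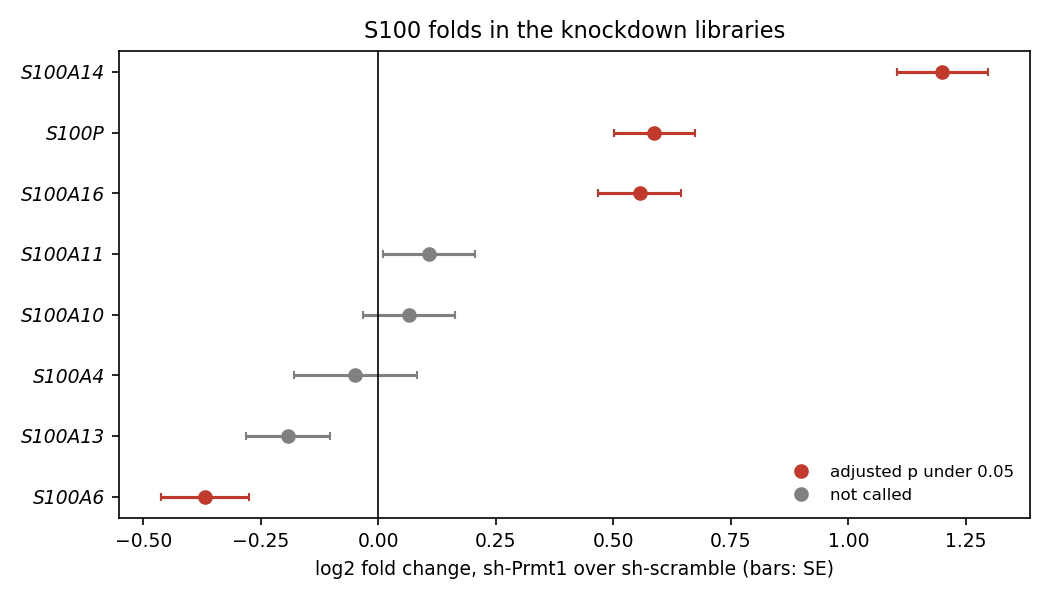
Log2 fold changes, sh-Prmt1 over sh-scramble, with bars of 1 SE for the 8 S100 members tested, in red where the edgeR adjusted p was under 0.05 and grey otherwise. S100A14, S100P and S100A16 lie right of 0 and S100A6 left of it.

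Set side by side, 7 members were tested in both experiments, which differ in species annotation, culture and perturbation and share no samples. S100A16 alone was called in both, 1 of 7 members or 14.3%, where 21.8% of 9548 shared symbols were called in both. Its log2 fold change was -0.85 in Ctnnb1-ex3 over WT and 0.56 in sh-Prmt1 over sh-scramble, so the directions differed, as they did for 1087 of the 2078 symbols called in both. S100A14 had -0.49 in Ctnnb1-ex3 over WT and 1.20 in sh-Prmt1 over sh-scramble. S100A6 had -0.26 in Ctnnb1-ex3 over WT and -0.37 in sh-Prmt1 over sh-scramble. The authors' deposited table of the genotype comparison held 3 members at an adjusted p under 0.05, S100g, S100a16 and S100a1, all lower, and the authors' deposited table of the knockdown held 4, S100A14, S100P and S100A16 higher and S100A6 lower.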

How the data were processed

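Members were taken by symbol from a mouse count table and from gene-level quantification files per human gene, both deposited by the authors. The submitters' processing notes name mm10, Salmon and DESeq2 but give no role or version. The counting tool is not stated there. The lowest deposited mouse count was 1, a value that 861 genes had in every library. Per the file headers, the authors' knockdown files hold estimated counts and TPM, with 60237 human identifiers. Of these, 200 sex-linked identifiers were left out. The authors also deposited a log2 fold change and an adjusted p-value per gene for each experiment; any value taken from them is credited to that table.

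The 2 experiments were modelled separately in edgeR 4.0.16 (R 4.3.3) with TMM factors, filterByExpr, a group term, and the two-sided quasi-likelihood test with p-values adjusted over all tested genes by Benjamini and Hochberg. Estimated counts were rounded to whole numbers. All 9 mouse members and 8 of 10 human members passed the filter. The SE is the absolute log2 fold change divided by the square root of the test's F. CPM are TMM-scaled; counts at 3 correspond to 0.451 and 0.771 CPM in Ctnnb1-ex3 and 0.691 and 1.14 CPM in WT, which covers counting error only. The biological coefficient of variation was 0.171 for genotype and 0.105 for knockdown, and replicates differed beyond counting noise in all 4 groups (chi-square per degree of freedom from 3.75 to 27.4).

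Alternatives were RLE and upper-quartile factors, DESeq2 1.42.0, no filter, a replicate block, 1 taken from each mouse count, limma 3.58.1 on log2(TPM + 1) for genes of at least 1 TPM in 2 libraries, and leaving out each library. An offset following read density (lowess, span 0.3) and a crossed replicate block were added after the data were seen. The members and the gene lists were chosen with earlier results of these data known. The lists were other S100 genes, binding partners, vitamin D and calcium transport, and cell markers. Marker lists covered enterocytes, stem, secretory, stromal, endothelial, immune, blood and epithelial cells. Mouse S100a2 was added to the other S100 genes later. Named were every member, at most 3 called genes with the largest change per list, partners of called members, and the targeted and Wnt genes.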

Additional observations from a re-analysis of the deposited data

How the results depend on the processing

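Both comparisons rest on 2 libraries per group, and the mouse libraries were the shallower ones. Of the members' results under alternatives, 80 kept direction and side of the threshold in the genotype comparison, 9 passed it newly, 8 no longer passed and 2 changed sign; in the knockdown the numbers were 80, 0, 2 and 6.

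In the genotype comparison 2637 genes were called higher and 2654 lower. Upper-quartile factors gave 1752 lower and 3725 higher, with the median of all genes moved by 0.26 on the log2 scale. Leaving out 1 library gave 1110 to 4008 higher and 1524 to 3749 lower. Members called lower were 2 with the density offset and 2 to 8 when 1 library was left out, against 4. In the knockdown, DESeq2 called 2509 genes higher and 3585 lower, against 3793 and 3765, and limma on TPM called 3522 higher, 1945 lower and 0 members lower; leaving out 1 library gave 0 to 1 members lower. The cause was not tested.

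Signs changed with the offset for S100a11 (0.24) and S100a6 (0.18). Cacybp had 0.28 with the offset, 0.067 with upper-quartile factors and -0.40 to 0.022 when 1 library was left out. With limma on TPM, AHNAK had -0.15, ANXA2 0.019, AXIN2 0.049, S100A13 0.072 and S100A4 0.18. When 1 library was left out, S100A10 ranged from -0.058 to 0.13, S100A11 from -0.010 to 0.16, S100A4 from -0.23 to 0.090, VDR from -0.011 to 0.098 and NKD1 from -0.10 to 0.079. NKD1 had -0.015 with RLE factors, -0.054 with DESeq2 and -0.025 without the filter.

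Same-numbered libraries share only a number: the correlation of their deviations was 0.11 for genotype and -0.11 for knockdown. With a replicate block, 2981 genes were called higher and 3503 lower in the genotype comparison, with 6 members lower (27.0% of all genes), among them S100a10 (adjusted p = 0.00076) and S100a11 (0.0076), and 3516 higher and 3570 lower in the knockdown. With crossed pairs, chosen after seeing the data, the knockdown gave 4081 higher and 4066 lower.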
